A study of Homo sapiens and Mus musculus with 160 samples.

Results

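The genes described are 10 that encode actins and proteins that bind actin filaments in contractile bundles, namely ACTB, ACTG1, ACTA2, TAGLN, TAGLN2, TPM1, TPM2, MYL9, MYH9 and CNN2. They were picked by symbol, ignoring case, with earlier results of these data known. All 10 were found among the 17985 rows of the mouse NIH-3T3 tables and all 10 among the 18165 rows of the human K562 tables.

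Actin monomers assemble into filaments that give a cell its cortex and stress fibres. Beta-actin (ACTB) and gamma-actin (ACTG1) are the cytoskeletal forms found in nearly every cell, and alpha-actin of smooth muscle (ACTA2) marks smooth muscle cells and contractile fibroblasts. Transgelins and calponins bind along the filament, tropomyosins line its groove and control access to it, and non-muscle myosin II, built of heavy chains such as MYH9 and regulatory light chains such as MYL9, pulls on it. Many of these genes are transcribed under serum response factor (SRF), and beta-actin mRNA is a textbook case of a stable mRNA.

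RNA half-lives came from subcellular TimeLapse-seq, in which cells take up 4-thiouridine and chemistry then turns the analog into T-to-C mismatches that mark new RNA in the reads. The groups were untreated NIH-3T3 cells, a mouse embryonic fibroblast line, and untreated K562 cells, a human chronic myelogenous leukaemia line with erythroid features. Species and cell type thus differ together, and the 2 cannot be told apart in any difference between the lines. Each line had 50 samples: 2 replicate time courses of 0, 15, 30, 60 and 120 min of labelling in 5 fractions (chromatin, nucleus, cytoplasm, polysomes and whole cell). The other 60 of the 160 samples, K562 cells with shRNAs, stand behind none of the values and were not used here.

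The deposited values are 4 tables, 1 per line and replicate, with a posterior mode and a 95% credible interval per gene and step in minutes. Chromatin and nuclear half-lives describe how long RNA stays in those compartments, the export half-life covers nuclear RNA that has left chromatin, the cytoplasmic and whole-cell half-lives describe turnover there, and the polysome loading half-life covers entry into polysomes. Between 11392 and 13514 genes had a value for a given step and table. Half-lives below 15 min or above 120 min lie outside the labelling times, so their sizes rest on the fitted model. The files give no read numbers, hence the depth behind a value is unknown, and the intervals cover only the fit within 1 time course. Of 10 erythroid markers, 1 (TFRC) had a whole-cell half-life in both NIH-3T3 tables and 10 had one in both K562 tables. Of 10 fibroblast markers, 10 had one in both NIH-3T3 tables and 2 in both K562 tables.

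The 3 actin mRNAs are close copies of each other, which matters for reads that could be assigned to more than one of them. Over the 1128 coding bases that end at the stop codon, compared without gaps in the GENCODE 29 human transcripts, ACTB and ACTG1 were 91.2% identical, ACTB and ACTA2 81.9%, and ACTG1 and ACTA2 82.1%. The last 90 coding bases of each are shown 5′ to 3′, with capitals at the bases that differ from ACTB.
ACTB: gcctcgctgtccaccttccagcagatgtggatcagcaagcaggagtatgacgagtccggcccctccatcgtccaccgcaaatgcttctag
ACTG1: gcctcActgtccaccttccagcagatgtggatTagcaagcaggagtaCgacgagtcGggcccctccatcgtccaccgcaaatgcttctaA
ACTA2: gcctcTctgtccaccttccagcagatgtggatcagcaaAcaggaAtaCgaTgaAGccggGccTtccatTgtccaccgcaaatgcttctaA
ACTG1 differs from ACTB at 5 of these bases and ACTA2 at 11. Across whole transcripts, 192 of the 1872 windows of 50 bases in ACTB (10.3%) also occurred in transcripts of 17 other genes. Of these, 95 occurred in ACTBP2, the most for any gene, and 10 in ACTG1. The counts were 79 of 2207 windows for ACTG1, 145 of 1555 for TAGLN2 (all in the pseudogene TAGLN2P1), 46 of 7505 for MYH9 (all in MYH11) and 5 of 2130 for CNN2. No window of ACTA2, TAGLN, TPM1, TPM2 or MYL9 was shared. How the authors assigned shared reads is not given in the sources used here, so values of ACTB, ACTG1 and TAGLN2 carry that uncertainty. The same count could not be made for the mouse transcripts.

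In the human genome (GRCh38) these genes lie on 10 different chromosomes and differ widely in size. ACTB is on the minus strand of chromosome 7 (5527147 to 5563784), ACTG1 on the minus strand of chromosome 17 (81509971 to 81523847) and ACTA2 on the minus strand of chromosome 10 (88935074 to 88991339). MYH9 spans 106791 bases of the minus strand of chromosome 22 (36281277 to 36388067) with 41 exons in its main transcript, whereas TAGLN spans 5462 bases of the plus strand of chromosome 11 (117199321 to 117204782) with 4 exons. Uridines, the bases at which labelling can be read, made up between 15% (TPM2) and 23.5% (ACTA2) of the main transcripts.

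In NIH-3T3 cells the mRNAs of all 10 genes were long-lived. Each whole-cell half-life lay above the median of all genes in both tables, with 250 to 2600 min against a median over all genes of 110 min in replicate 1, and 220 to 2400 min against 110 min in replicate 2. In K562 cells 6 of the 9 genes with a value lay above that median in both tables, with 60 to 930 min against 210 min in replicate 1 and 77 to 930 min against 200 min in replicate 2. The lowest K562 values were those of TAGLN and TPM2. In the nucleus all 10 genes were above the median of 77 and 79 min in the NIH-3T3 tables, and 7 of 9 genes with both values were above the median of 73 and 85 min in the K562 tables, TPM1 and TPM2 being below it. ACTA2, a gene of contractile cells, had no chromatin, export, polysome loading or whole-cell value in K562 cells. MYL9 had no export value and no chromatin value in K562 replicate 2 and no polysome loading value in replicate 1.

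**Figure D1:**
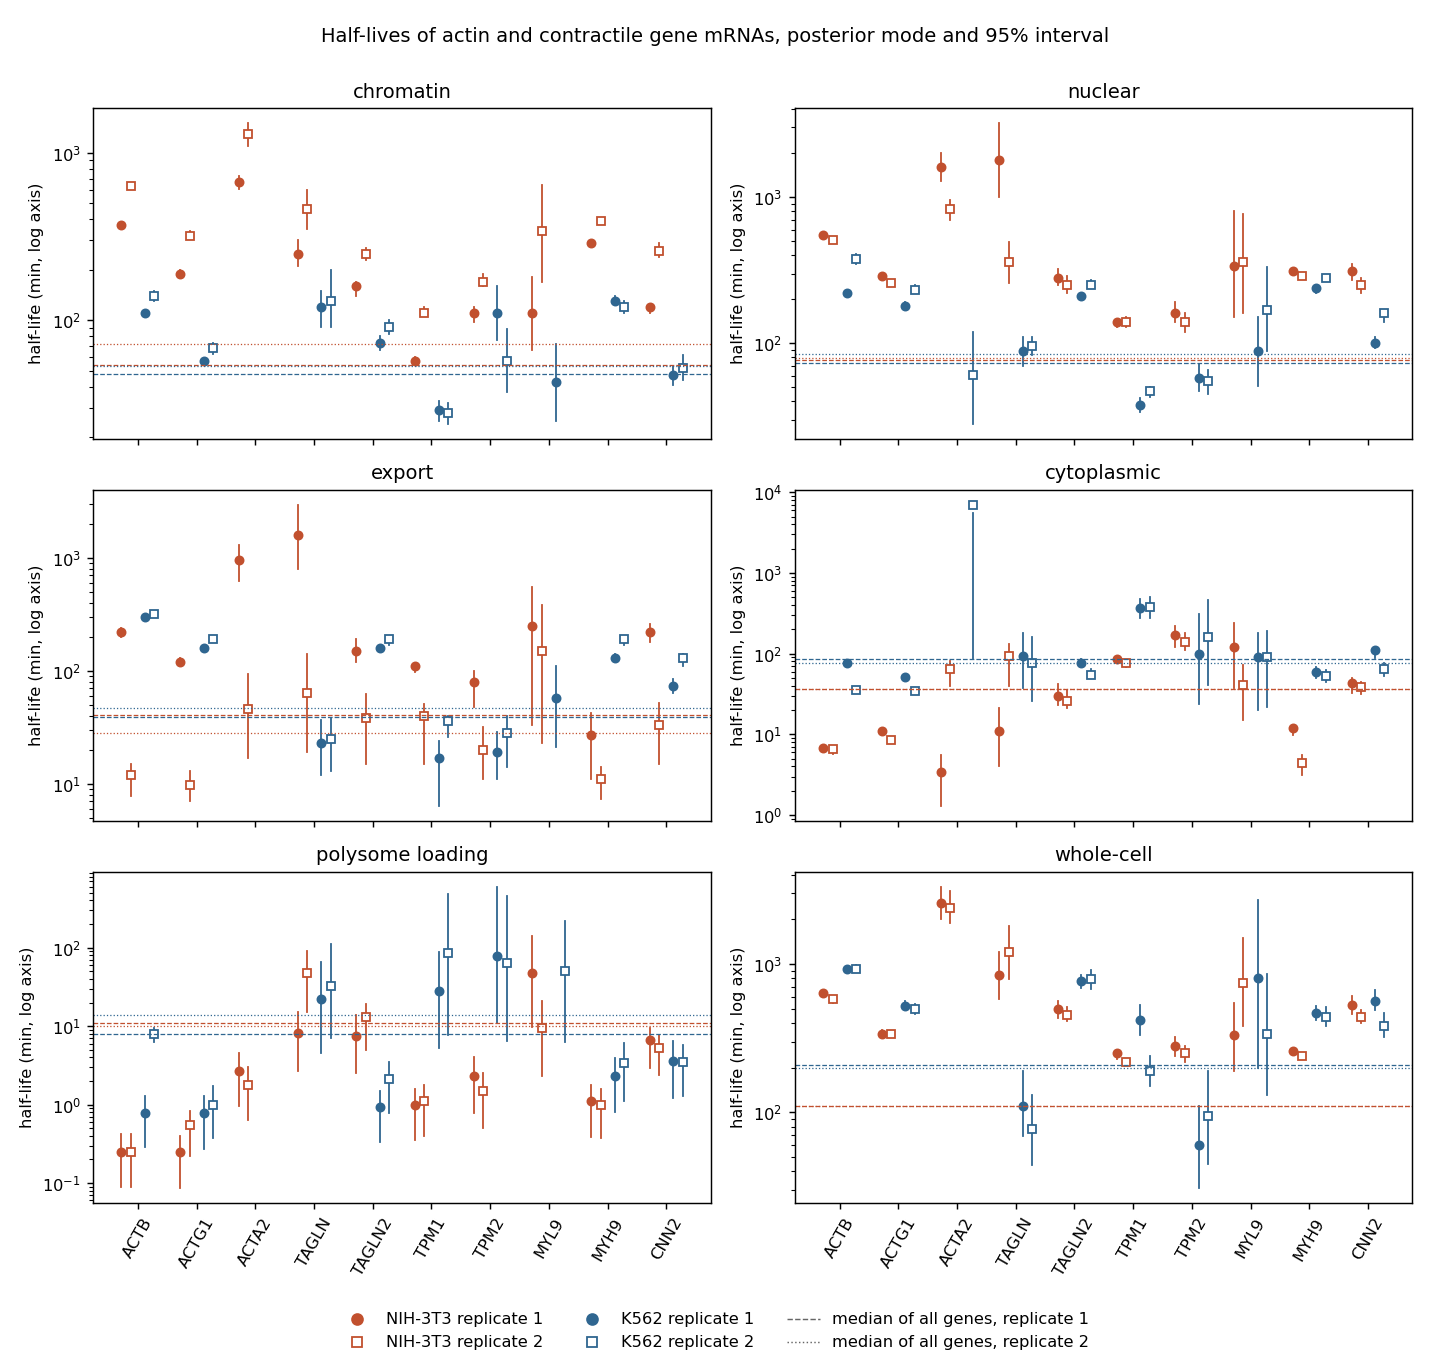
Posterior mode (points) and 95% credible interval (lines) of 6 half-lives of the 10 genes in minutes on log axes, NIH-3T3 left of K562 for each gene, with filled circles for replicate 1 and open squares for replicate 2. Dashed and dotted lines mark the median of all genes in replicates 1 and 2. All 10 NIH-3T3 whole-cell values lie above the NIH-3T3 median of 110 min, and the K562 values of TAGLN and TPM2 (60 to 110 min) lie below the K562 medians.

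Beta-actin and gamma-actin, the cytoskeletal actins, shared a pattern in NIH-3T3 cells of a long stay in the nucleus and a short one in the cytoplasm. Actb had nuclear half-lives of 550 and 510 min in the NIH-3T3 replicates and Actg1 290 and 260 min, whereas the cytoplasmic half-lives were 6.8 and 6.5 min for Actb and 11 and 8.6 min for Actg1. The nuclear value was therefore 80.9 and 78.5 times the cytoplasmic one for Actb, and 26.4 and 30.2 times for Actg1. These cytoplasmic values lie below the shortest labelling time of 15 min and the nuclear ones above the longest of 120 min. The sizes of the ratios therefore rest on values outside the labelling times. In K562 cells the order of the steps was the same and the gap smaller: ACTB had 220 and 380 min in the nucleus against 77 and 35 min in the cytoplasm (2.86 and 10.9 times), and ACTG1 180 and 230 min against 52 and 34 min (3.46 and 6.76 times).

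Each of these gaps had intervals apart in both tables of its line. The ratio of nuclear to cytoplasmic half-life was higher in NIH-3T3 than in K562 cells by a log2 difference of 3.84 ± 0.70 (SE) for ACTB (limma, Benjamini-Hochberg adjusted p = 0.0164, n = 2 tables per line). For ACTG1 it was 2.54 ± 0.45 (limma adjusted p = 0.0151). The median over all genes of this difference was 1.08. After the tables were centred on their medians both genes stayed called, near the threshold. The differences were then 2.67 for ACTB (limma adjusted p = 0.0404) and 1.38 for ACTG1 (limma adjusted p = 0.0449). Leaving out 1 table at a time gave 2.88 to 4.80 for ACTB and 2.06 to 3.03 for ACTG1. The nuclear half-life alone was not called without centring, at 0.87 for ACTB (limma adjusted p = 0.0973) and 0.43 for ACTG1 (limma adjusted p = 0.129). With centring it was called for ACTB only (limma adjusted p = 0.0394).

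On chromatin, Actb had 370 and 630 min in the NIH-3T3 tables, against 110 and 140 min for ACTB in the K562 tables. Actg1 had 190 and 320 min in the NIH-3T3 tables, against 57 and 68 min for ACTG1 in the K562 tables. The lines did not overlap for either gene, and the chromatin half-life was longer in NIH-3T3 cells by a log2 difference of 1.96 ± 0.37 for ACTB (limma adjusted p = 1.53e-05) and 1.99 ± 0.37 for ACTG1 (limma adjusted p = 1.18e-05). All genes together had a median difference of 0.35. After centring the differences were 1.60 for ACTB (limma adjusted p = 0.00462) and 1.63 for ACTG1 (limma adjusted p = 0.00416). The ACTG1 result holds for posterior modes only: with posterior means its difference was -0.71, since the deposited mean in K562 replicate 1 is 2400 min, outside its own interval of 54 to 58 min.

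In the cytoplasm both actins turned over faster in NIH-3T3 than in K562 cells, with log2 differences of -2.97 ± 0.44 for ACTB (limma adjusted p = 0.0106) and -2.11 ± 0.31 for ACTG1 (limma adjusted p = 0.0103). Half-lives in this compartment were shorter in NIH-3T3 cells for most genes, with a median difference of -1.11. Relative to that median, ACTB stayed called at -1.74 and ACTG1, at -0.89, did not (limma adjusted p = 0.0659).

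In the whole cell, Actb had 640 and 580 min in the NIH-3T3 tables, against 930 and 930 min for ACTB in the K562 tables. Actg1 had 340 and 340 min in the NIH-3T3 tables, against 520 and 500 min for ACTG1 in the K562 tables. In NIH-3T3 replicate 2 the whole-cell interval of Actb (550 to 590 min) lay below its chromatin interval (610 to 640 min). The whole-cell half-lives were shorter in NIH-3T3 cells by log2 differences of -0.61 ± 0.10 for ACTB (limma adjusted p = 0.0139) and -0.58 ± 0.09 for ACTG1 (limma adjusted p = 0.0114), while the median over all genes was -0.84. The direction therefore turns with the scaling: after centring, the differences were 0.36 for ACTB (limma adjusted p = 0.0775) and 0.38 for ACTG1 (limma adjusted p = 0.0496). Within each line the ranks were close, with ACTB at percentile 97.5 and 97.0 of all genes in NIH-3T3 cells and 95.8 and 96.3 in K562 cells.

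Polysome loading was fast for both actins in NIH-3T3 cells, at 0.25 and 0.25 min for Actb and 0.25 and 0.55 min for Actg1, at percentile 0.349 of all genes or below. In K562 cells ACTG1 had 0.78 and 1.0 min, and ACTB had 0.78 and 8.0 min, so that the K562 replicates of ACTB differed 10.3-fold with intervals apart. Such values lie far below the shortest labelling time of 15 min. The log2 differences of -3.32 ± 1.29 for ACTB (limma adjusted p = 0.458) and -1.25 ± 0.75 for ACTG1 (limma adjusted p = 0.556) did not pass the test.

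Smooth muscle alpha-actin could be described in NIH-3T3 cells only. Acta2 had the longest chromatin and whole-cell half-lives of the 10 genes there, at 670 and 1300 min on chromatin and 2600 and 2400 min in the whole cell, where it was at percentile 99.1 of all genes in both tables. Its intervals were apart from those of every other gene of the group for both steps. The nuclear half-life of Acta2 was 1600 and 830 min and the cytoplasmic one 3.4 and 64 min, so the replicates differed 1.93-fold in the nucleus and 18.8-fold in the cytoplasm, each with intervals apart. The nuclear half-life was the longer one in both tables, by 471 times in replicate 1 and 13.0 times in replicate 2, and the size of that gap is not settled by these tables. In K562 cells a nuclear value of 61 min (interval 28 to 120) and a cytoplasmic value at the upper bound of 6900 min, above its own interval of 85 to 5600 min, were given in replicate 2 alone.

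The transgelins split. TAGLN, also called SM22 alpha and a marker of smooth muscle and contractile fibroblasts, had whole-cell half-lives of 850 and 1200 min in the NIH-3T3 tables, against 110 and 77 min in the K562 tables. The widely expressed TAGLN2 had 500 and 450 min in the NIH-3T3 tables, against 770 and 790 min in the K562 tables. Both pairs of lines were apart, in opposite directions, before centring.

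TAGLN mRNA was longer-lived in NIH-3T3 cells by a log2 difference of 3.46 ± 0.29 (limma adjusted p = 0.00377), which is at percentile 99.8 of all genes tested, and by 4.42 after centring. TAGLN2 mRNA was shorter-lived by -0.72 ± 0.11 (limma adjusted p = 0.0103), but after centring the difference was 0.25 and not called (limma adjusted p = 0.175). For TAGLN the difference lay between 3.20 and 3.71 when any 1 table was left out.

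The steps behind the long life of Tagln mRNA in NIH-3T3 cells were less well fixed. Its nuclear half-life was 1800 and 360 min and its cytoplasmic one 11 and 94 min in the NIH-3T3 replicates, against 88 and 96 min and 94 and 76 min in the K562 replicates. The nuclear difference of 3.13 ± 0.86 did not pass the test without centring (limma adjusted p = 0.0576) and did with it (limma adjusted p = 0.0384). TAGLN was the 1 gene of the group with a chromatin half-life longer than its export half-life in K562 cells, with intervals apart in both tables, at 120 and 130 min against 23 and 25 min. Those chromatin modes also lay above its K562 whole-cell modes of 110 and 77 min, with overlapping intervals.

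TAGLN2 followed the cytoskeletal actins in K562 cells, where its nuclear half-life was 210 and 250 min, its export half-life 160 and 190 min and its cytoplasmic half-life 77 and 55 min. In NIH-3T3 cells the nuclear half-life was 280 and 250 min and the cytoplasmic one 30 and 26 min. Its cytoplasmic half-life was shorter in NIH-3T3 cells by -1.22 ± 0.26 (limma adjusted p = 0.0225), close to the median of all genes, and 0.00 after centring.

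Calponin 2 (CNN2), a calponin that is not restricted to muscle, had whole-cell half-lives of 530 and 440 min in the NIH-3T3 tables, against 560 and 380 min in the K562 tables, and these overlapped. Its chromatin half-life was 120 and 260 min in the NIH-3T3 tables, against 47 and 52 min in the K562 tables, a log2 difference of 1.84 ± 0.37 (limma adjusted p = 5.65e-05). After centring the chromatin difference of CNN2 was 1.48 (limma adjusted p = 0.0127). In the nucleus it had 310 and 250 min in the NIH-3T3 tables, against 100 and 160 min in the K562 tables. That difference of 1.14 ± 0.29 did not pass the test (limma adjusted p = 0.0509) and did after centring (limma adjusted p = 0.0194).

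The tropomyosins stayed long in the cytoplasm of NIH-3T3 cells, as did TPM1 in K562 cells. By geometric mean they had the longest cytoplasmic half-lives of the group in NIH-3T3 cells, not apart from those of Myl9 and Tagln nor, for Tpm1, from that of Acta2, at 86 and 77 min for Tpm1 and 170 and 140 min for Tpm2. In K562 cells TPM1 had 370 and 380 min and TPM2 100 and 160 min. The K562 intervals of TPM2 were wide, at 24 to 310 and 41 to 460 min, and not apart from those of any other member with values. The median over all genes was 86 and 76 min there. TPM1 was the 1 member with a longer cytoplasmic than nuclear half-life in K562 cells, with intervals apart in both tables, at 38 and 47 min in the nucleus.

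TPM1 changed its balance between the lines. Tpm1 had a nuclear half-life of 140 and 140 min in the NIH-3T3 tables, 1.63 and 1.82 times its cytoplasmic one, whereas in the K562 tables the ratio was 0.103 and 0.124. The ratio was higher in NIH-3T3 cells by a log2 difference of 3.93 ± 0.33 (limma adjusted p = 0.00784), and by 2.76 after centring. The range was 3.80 to 4.07 with any 1 table left out. Taken singly, the nuclear half-life was longer in NIH-3T3 cells by 1.73 ± 0.15 (limma adjusted p = 0.0109) and the cytoplasmic one shorter by -2.20 ± 0.19 (limma adjusted p = 0.00700).

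TPM2 mRNA, in contrast, was longer-lived in the whole NIH-3T3 cell. Its whole-cell half-life was 280 and 250 min in the NIH-3T3 tables, against 60 and 94 min in the K562 tables, a log2 difference of 1.82 ± 0.27 (limma adjusted p = 0.0102) at percentile 99.2 of all genes. The K562 intervals of TPM2 were 31 to 110 and 45 to 190 min, the second wider than the 4-fold limit of the interval filter. Both K562 whole-cell modes of TPM2 also lay below its cytoplasmic ones of 100 and 160 min. Its nuclear half-life, 160 and 140 min in the NIH-3T3 tables against 58 and 55 min in the K562 tables, was longer by 1.41 ± 0.13 (limma adjusted p = 0.0112). TPM1 had whole-cell half-lives of 250 and 220 min in the NIH-3T3 tables, against 420 and 190 min in the K562 tables, which overlapped.

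Polysome loading of the tropomyosins differed most in value. Tpm1 had 0.99 and 1.1 min and Tpm2 2.3 and 1.5 min in the NIH-3T3 tables, against 28 and 86 min for TPM1 and 79 and 64 min for TPM2 in the K562 tables. The log2 differences of -5.56 ± 0.84 (limma adjusted p = 0.142) and -5.26 ± 0.68 (limma adjusted p = 0.0875) did not pass the test, in a comparison that called few genes at all. The K562 intervals were wide, at 7.8 to 480 min for TPM1 in replicate 2.

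Myosin heavy chain 9 resembled the cytoskeletal actins. Myh9 had nuclear half-lives of 310 and 290 min and cytoplasmic half-lives of 12 and 4.4 min in the NIH-3T3 tables, while MYH9 had 240 and 280 min and 60 and 53 min in the K562 tables. The ratio of the steps was higher in NIH-3T3 cells by a log2 difference of 3.17 ± 0.56 (limma adjusted p = 0.0151), and by 2.0 after centring.

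On chromatin Myh9 had 290 and 390 min in the NIH-3T3 tables, against 130 and 120 min for MYH9 in the K562 tables (log2 difference 1.43 ± 0.36, limma adjusted p = 0.00113). In the whole cell it had 260 and 240 min in the NIH-3T3 tables, against 470 and 440 min in the K562 tables. This difference of -0.86 ± 0.10 (limma adjusted p = 0.00683) was close to the median of all genes (-0.84) and was 0.10 after centring (limma adjusted p = 0.496).

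MYH9 was also the 1 member with a called difference in export. Myh9 export took 27 and 11 min in the NIH-3T3 tables, against 130 and 190 min in the K562 tables, a log2 difference of -3.19 ± 0.58 (limma adjusted p = 0.0378) with a median over all genes of -0.33. After centring it was -2.76 (limma adjusted p = 0.00665), and it lay between -3.84 and -2.54 with any 1 table left out.

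The regulatory light chain MYL9, abundant in smooth muscle, had wide intervals throughout. Its nuclear half-life was 340 min (150 to 800) and 360 min (160 to 770) in the NIH-3T3 tables, against 89 min (51 to 150) and 170 min (88 to 330) in the K562 tables. The nuclear half-life was longer in NIH-3T3 cells by a log2 difference of 1.51 ± 0.36 (limma adjusted p = 0.0432), and with posterior means the difference for MYL9 was 1.40 and did not pass. Its whole-cell values of 330 and 740 min in the NIH-3T3 tables and 800 and 340 min in the K562 tables overlapped.

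**Figure D2:**
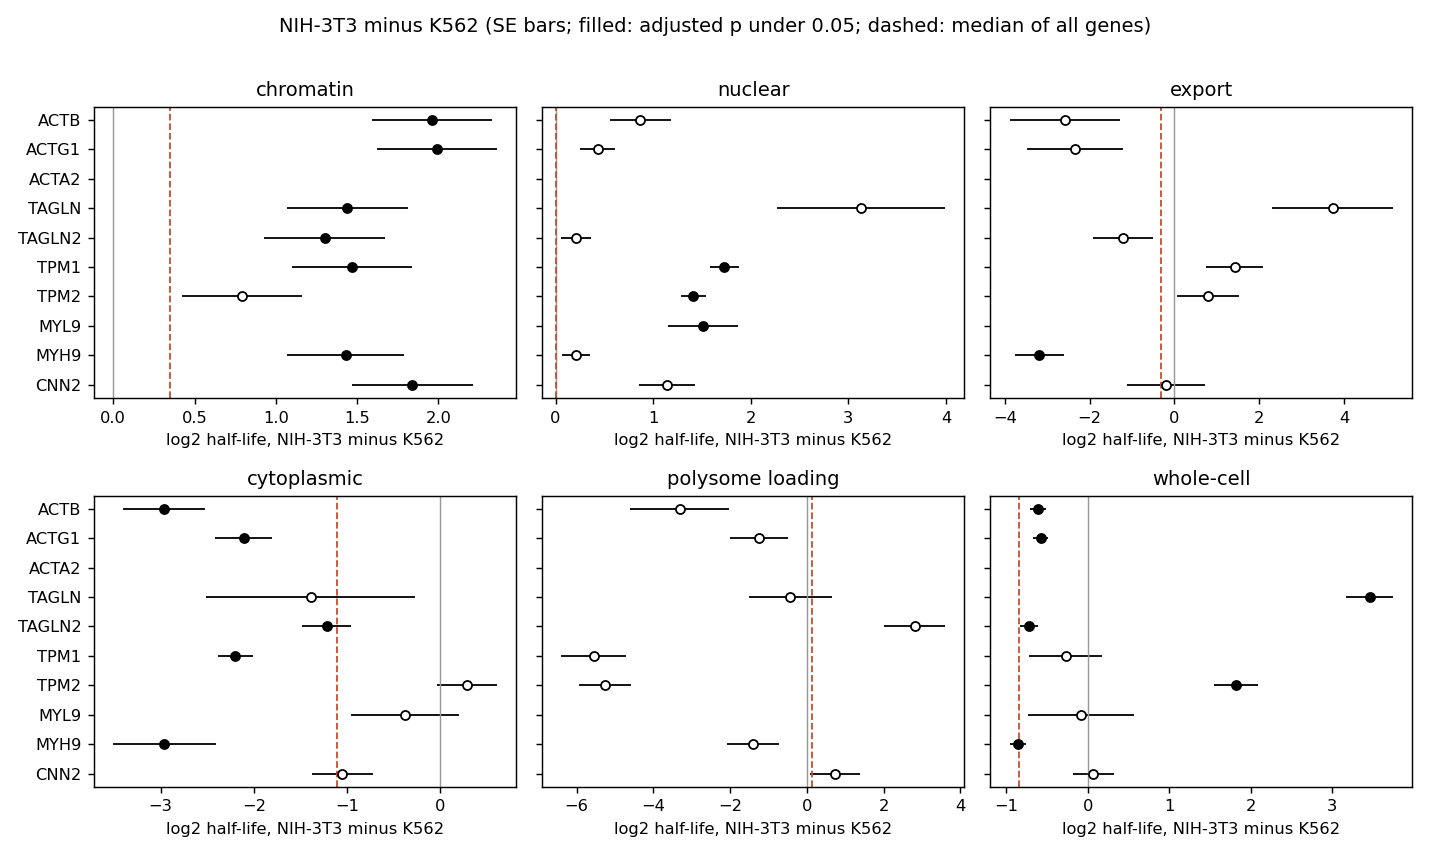
Log2 difference in half-life, NIH-3T3 minus K562, with its SE for each gene that had 4 values, in 6 panels with different horizontal ranges; filled points passed limma at an adjusted p under 0.05, the grey line is 0 and the dashed line the median of all genes. Chromatin points all lie above the median of 0.35, and TAGLN and TPM2 stand apart on the right in the whole-cell panel.

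Counted over the group, the chromatin half-life was the step with the most calls. It was longer in NIH-3T3 cells for 7 of 8 genes tested (limma adjusted p under 0.05), where 28.6% of all genes were called longer, and TPM2 at 0.79 ± 0.37 was the exception. The median difference was 1.46, against 0.35 over all genes. After centring the count was again 7 of 8, where 26.8% of all genes were called longer. The uncentred chromatin fit had a prior of 72.3 degrees of freedom, against 1.72 for nuclear and 1.98 for cytoplasmic half-life. With 2 residual degrees of freedom, its SEs of 0.36 to 0.37 rest almost wholly on the spread pooled over all genes. They say little of how far the replicates of a single member differed. Counts for these steps are therefore not compared at equal power. With centring the priors were 2.29 for chromatin and 2.17 for nuclear half-life. All 10 genes had longer chromatin half-lives in NIH-3T3 replicate 2 than in replicate 1, which is taken up with export.

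The nuclear half-life was longer in NIH-3T3 cells for 3 of 9 genes (TPM1, TPM2 and MYL9), where 20.0% of all genes were called longer and 19.9% shorter. With centring, 6 of 9 genes were called longer, against 24.5% of all genes. All 9 had a positive difference, with a median of 1.14 against -0.00 over all genes. The cytoplasmic half-life was shorter for 5 of 9 genes (ACTB, ACTG1, TAGLN2, TPM1 and MYH9), where 53.4% of all genes were called shorter and 2.08% longer, so this share was near the background. With centring it was shorter for 2 of 9 (ACTB and TPM1), against 9.84% of all genes.

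The whole-cell half-life was longer in NIH-3T3 cells for 2 of 9 genes (TAGLN and TPM2), where 5.06% of all genes were called longer, and shorter for 4 of 9 (ACTB, ACTG1, TAGLN2 and MYH9), where 60.2% were called shorter. With centring 4 of 9 were called longer (ACTG1, TAGLN, TPM2 and CNN2), against 26.3% of all genes, and none was called shorter, against 18.2%, so the direction for ACTG1 flips with the scaling. Export was called shorter for 1 of 8 genes (MYH9), where 4.36% of all genes were called shorter and 4.60% longer. With centring TAGLN and TPM1 were called longer, against 15.3% of all genes, and MYH9 shorter, against 9.95%. No gene of the group passed the test for polysome loading in limma, where 0.395% of all genes were called longer and 0.443% shorter. At an unadjusted p under 0.05 there were 3 of 8 members and 933 of 8358 genes.

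The ratio of nuclear to cytoplasmic half-life was higher in NIH-3T3 cells for 6 of 9 genes (ACTB, ACTG1, TAGLN2, TPM1, MYH9 and CNN2), where 38.4% of all genes were called higher and 4.02% lower. With centring 4 of 9 were called (ACTB, ACTG1, TPM1 and MYH9), against 14.5% of all genes. The ratio of chromatin to export half-life was higher for 3 of 8 (ACTB, ACTG1 and MYH9), where 5.21% of all genes were called higher and 1.92% lower. With centring only MYH9 of these passed, against 6.95% of all genes. The ratio of cytoplasmic to polysome loading half-life was called for none of 8358 genes (0%) in limma, while 3 of the 8 members and 1754 of all genes had an unadjusted p under 0.05.

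These calls rest on the full set of 4 tables. Without NIH-3T3 replicate 1, no gene of the group was called in limma in the 6 half-lives, and without NIH-3T3 replicate 2 none was either. In those fits the whole list of genes gave no call either, with 1 residual degree of freedom left and a prior of 0.741 to 1.95 degrees of freedom. Without K562 replicate 1, 4 members were called for whole-cell half-life and none for chromatin or cytoplasmic half-life. Without K562 replicate 2 the counts were 4 for the whole cell, 3 for chromatin and 3 for the cytoplasm. For the ratio of nuclear to cytoplasmic half-life, 5 members were called without K562 replicate 2 and none without any 1 of the other tables. For the ratio of chromatin to export half-life the counts were 5 without NIH-3T3 replicate 1, 0 without NIH-3T3 replicate 2, 1 without K562 replicate 1 and 0 without K562 replicate 2.

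**Figure D3:**
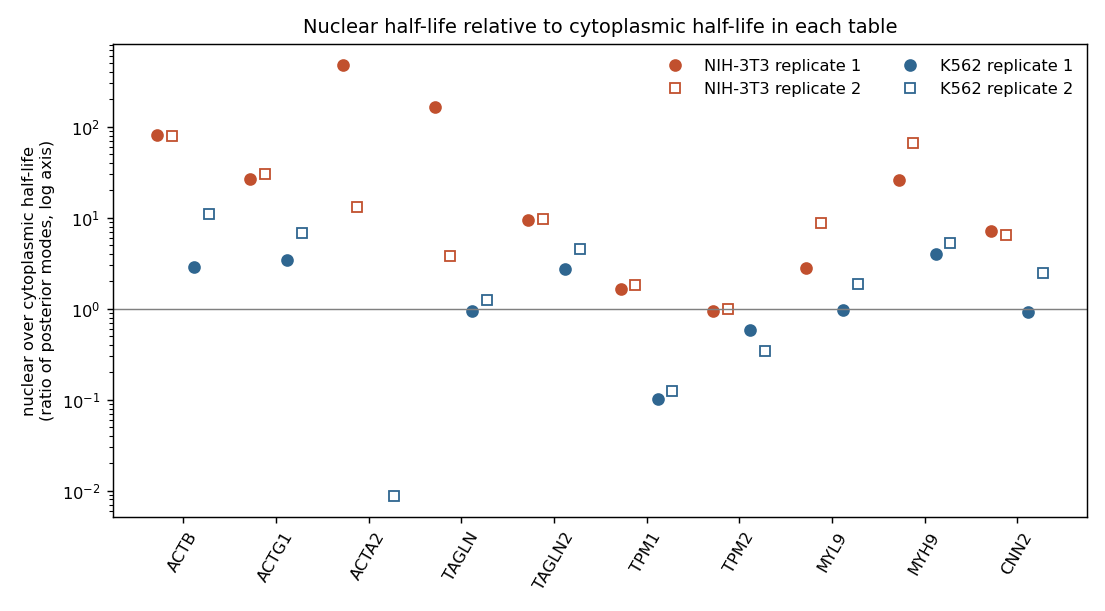
Ratio of nuclear to cytoplasmic half-life (posterior modes, log axis) for each gene, NIH-3T3 left of K562, filled circles for replicate 1 and open squares for replicate 2, with the grey line at 1. Actb stands near 80 in both NIH-3T3 tables, against 2.86 and 10.9 in the K562 tables, and TPM1 is above 1 in NIH-3T3 and near 0.1 in K562 cells.

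Within NIH-3T3 cells, the nuclear half-life exceeded the cytoplasmic one with intervals apart in both tables for 8 of 10 genes, where 51.8% of all genes did so and 5.73% had the opposite order. Tpm2 and Myl9 were the exceptions. Within K562 cells it did so for 4 of 9 (ACTB, ACTG1, TAGLN2 and MYH9), where 24.2% of all genes did, and 26.4% had the opposite order, as TPM1 did here. In K562 cells export took longer than the stay on chromatin for 4 of 8 genes (ACTB, ACTG1, TAGLN2 and CNN2), where 19.7% of all genes did so. In NIH-3T3 cells the chromatin half-life was longer than export for 3 of 10 (Actb, Actg1 and Myh9), where 29.8% of all genes did so. The cytoplasmic half-life was longer than the polysome loading half-life for 7 of 10 genes in NIH-3T3 cells, where 46.8% of all genes did so, and for 5 of 8 in K562 cells, where 55.8% did. The K562 order of chromatin above export, seen for TAGLN, held for 26.9% of all genes, and the NIH-3T3 order of export above chromatin, seen for no member, for 1.56%.

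The NIH-3T3 replicates differed in how nuclear time was divided for these genes. The export half-life was shorter in replicate 2 than in replicate 1 for 10 of 10 genes, by a median log2 difference of -2.36, against -0.55 over all genes. Actb export was 220 and 12 min, Actg1 120 and 9.8 min, and Tagln 1600 and 63 min. The chromatin half-life moved the other way, higher in replicate 2 for 10 of 10 genes, with a median of 0.82 against 0.45 over all genes. The nuclear half-life moved little, with a median of -0.16, although Tagln and Acta2 differed 5.0-fold and 1.93-fold.

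The order of the chromatin and nuclear half-lives changed with it. In NIH-3T3 replicate 1 the nuclear half-life was the longer one, with intervals apart, for 9 of 10 genes, where 55.2% of all genes were so. In replicate 2 the chromatin half-life was the longer one for 4 of 10 (Actb, Actg1, Acta2 and Myh9), where 10.1% of all genes were so, and the nuclear one for Tpm1, where 20.1% were so. In both tables the nuclear half-life was the longer one for Tpm1, where 17.9% of all genes were so, and the chromatin one for no member, where 0.571% were so. The authors' other estimate of the export half-life, taken from the fitted distributions, was at its lowest listed value of 6.9e-05 min in replicate 2 for Actb, Actg1, Acta2, Tagln, Tpm2, Myh9 and Cnn2. Their values in replicate 1 were 34 to 1600 min, but for Myh9 and Tpm2 the intervals of the replicates overlapped, and the 34 min of Myh9 lies outside its own interval. In K562 cells the nuclear half-life was longer than the chromatin one in both tables for 6 of 8 genes, where 51.6% of all genes were so, and the chromatin one for no member, where 0.779% were so. TPM2 had the longer half-life on chromatin in K562 replicate 1, with intervals apart, and in replicate 2 its intervals overlapped.

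**Figure D4:**
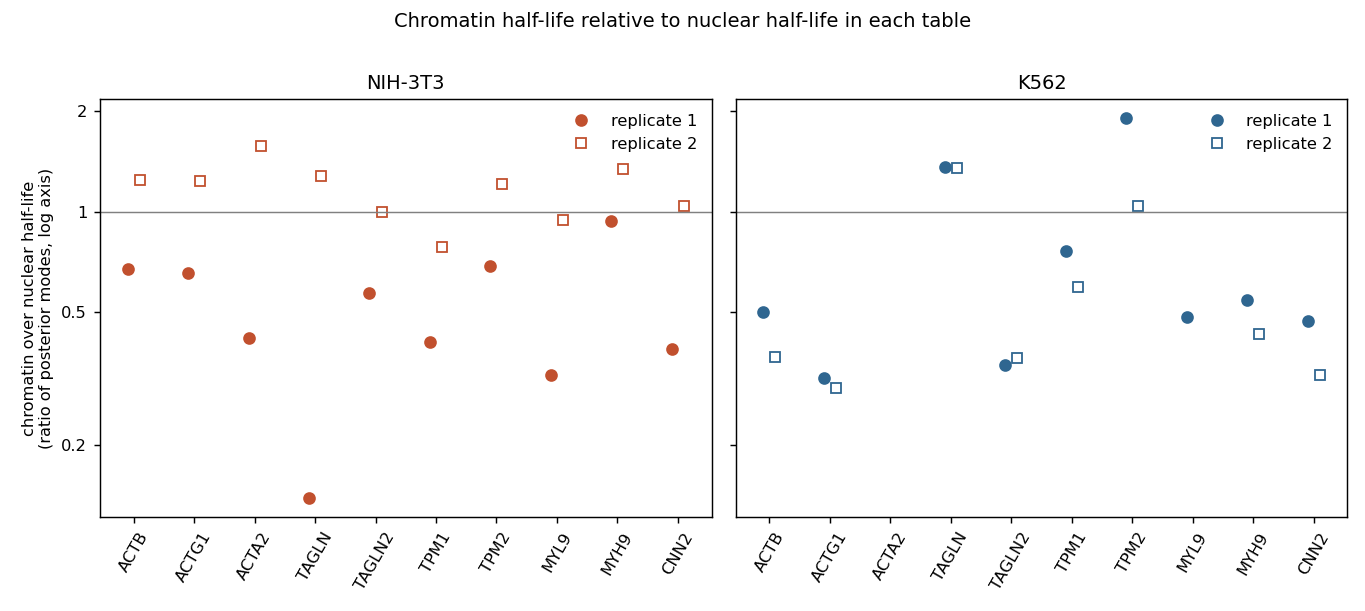
Ratio of chromatin to nuclear half-life (posterior modes, log axis) for each gene in the NIH-3T3 tables (left) and K562 tables (right), filled circles for replicate 1 and open squares for replicate 2, with the grey line at 1. For Actb the NIH-3T3 ratio is 0.673 in replicate 1 and 1.24 in replicate 2, and all 10 genes are higher in replicate 2, while for K562 ACTB it is 0.50 and 0.368.

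Ranked within a line, few neighbours could be told apart. By whole-cell half-life in NIH-3T3 cells, Acta2 came first at a geometric mean of 2498 min, apart from Tagln at 1010 min, which was not apart from Actb at 609 min. Myl9, Cnn2 and Tagln2 followed at 494, 483 and 474 min and were not apart from each other. Actg1 at 340 min was apart from its neighbours Tagln2 and Tpm2 but not from Myl9. Tpm2, Myh9 and Tpm1 closed the order at 265, 250 and 235 min, not apart. In K562 cells ACTB at 930 min and TAGLN2 at 780 min led and were not apart. MYL9, ACTG1, CNN2 and MYH9 lay at 522, 510, 461 and 455 min, not apart, TPM1 followed at 282 min, not apart from these, and TAGLN and TPM2 closed at 92.0 and 75.1 min, not apart. With its wide intervals, MYL9 was apart from Acta2 alone in NIH-3T3 cells and from no gene of the group in K562 cells, and TPM1 was not apart from TPM2 in K562 cells.

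The genes most like Actb in NIH-3T3 cells were found by Euclidean distance over 8 log2 half-lives (chromatin, nuclear, cytoplasmic and whole-cell, in both replicates) among 11725 genes. They were Lamp1 at a distance of 0.45, Rpn1 at 0.57, Gm49369 at 0.85, Ncam1 at 0.90 and Pdia6 at 0.92, where the median over all genes was 7.99. Lamp1 encodes a lysosomal membrane protein, Rpn1 a subunit of the oligosaccharyltransferase, Ncam1 a cell adhesion molecule and Pdia6 a protein disulfide isomerase. Lamp1, for example, had nuclear half-lives of 670 and 620 min and cytoplasmic half-lives of 6.6 and 6.5 min. Among the members Actg1 came nearest to Actb, at rank 218 with a distance of 2.40, followed by Myh9 at rank 245.

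For ACTB in K562 cells the 5 nearest of 11468 genes were CYSTM1 at 0.61, CT45A10 at 0.67, SET at 0.68, NAA38 at 0.71 and the translation elongation factor EEF2 at 0.73, with a median over all genes of 5.17. TAGLN2 was the nearest member at rank 58 and MYH9 was at rank 199. For Acta2 in NIH-3T3 cells the nearest were Pla2g7 at 3.05, the matrix proteoglycan gene Bgn at 3.26, Cox7a2 at 3.27, Rps15 at 3.29 and Igf2 at 3.42, and Tagln was at rank 9 with 3.54. No gene was as close to Acta2 as Lamp1 was to Actb.

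Other genes of the actin cytoskeleton were read from 3 lists drawn from textbook knowledge. Of 43 genes for actin binding and filament dynamics, 28 of 42 tested had longer chromatin half-lives in NIH-3T3 cells and 1 a shorter one, where 28.6% of all genes were called longer, with a median of 1.29 against 0.35 over all genes. As background for the shorter ones in all 3 lists, 3626 of 9380 genes were called on chromatin in either direction, 2686 of them longer. For the whole-cell half-life 2 were longer and 30 shorter, against 5.06% and 60.2% of all genes, with a median of -0.87, close to the -0.84 of all genes. With centring 10 were longer and 4 shorter, against 26.3% and 18.2%, so the direction of that count turns with the scaling. The muscle LIM protein relative CSRP1 had nuclear half-lives of 260 and 290 min in the NIH-3T3 tables, against 43 and 72 min in the K562 tables, and cytoplasmic ones of 26 and 31 min against 250 and 210 min. The filament cross-linker filamin A (FLNA) had 5.4 and 3.4 min in the NIH-3T3 cytoplasm, against 40 and 26 min in the K562 cytoplasm.

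The formin DIAPH1 went the other way, with nuclear half-lives of 320 and 320 min in the NIH-3T3 tables, against 670 and 740 min in the K562 tables, and cytoplasmic ones of 12 and 19 min against 4.8 and 3.3 min. CFL2, a cofilin of muscle, was longer-lived in the whole NIH-3T3 cell at 140 and 140 min, against 58 and 72 min in K562 cells, and had 58 and 60 min in the NIH-3T3 nucleus, against 12 and 16 min in the K562 nucleus. The monomer-binding thymosin TMSB4X had whole-cell values of 700 and 680 min in the NIH-3T3 tables, against 560 and 530 min in the K562 tables. Its relative TMSB10 had 250 and 370 min in the NIH-3T3 tables, against 1200 and 2400 min in the K562 tables, and nuclear values of 130 and 140 min against 390 and 490 min. The focal adhesion protein zyxin (ZYX) had 96 and 110 min in the whole NIH-3T3 cell, against 360 and 440 min in K562 cells, and the Arp2/3 subunit ACTR2 had 310 and 290 min against 1200 and 900 min. Each of these differences passed limma at an adjusted p of 0.0449 or less without centring, and after it the whole-cell difference of TMSB10 was not called (limma adjusted p = 0.0611).

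Of 23 relatives and regulators of myosin II, tropomyosin and calponin, 15 were tested on chromatin, with 8 longer and 1 shorter in NIH-3T3 cells, where 28.6% of all genes were called longer. In the nucleus 4 of 15 were longer and 1 shorter, against 20.0% and 19.9% of all genes. For the whole-cell half-life 1 of 13 was longer (TPM4) and 8 were shorter, against 5.06% and 60.2% of all genes, so the share of shorter ones was near the background. With centring 5 were longer and 3 shorter, against 26.3% and 18.2%. TPM4, a further tropomyosin, had whole-cell half-lives of 480 and 440 min in the NIH-3T3 tables, against 300 and 300 min in the K562 tables, and nuclear ones of 290 and 240 min against 47 and 60 min. The regulatory light chains MYL12A and MYL12B, closest in function to MYL9, had longer cytoplasmic half-lives in NIH-3T3 cells, at 120 and 110 min against 37 and 27 min in K562 cells for MYL12A, and 54 and 80 min against 22 and 14 min for MYL12B. The essential light chain MYL6 had 31 and 69 min in the NIH-3T3 cytoplasm, against 310 and 320 min in the K562 cytoplasm, and smoothelin (SMTN), a smooth muscle protein, had 35 and 36 min against 190 and 210 min. After centring the MYL6 difference was -1.55 and not called (limma adjusted p = 0.0824).

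Among the shorter-lived mRNAs of that list in the whole NIH-3T3 cell, PPP1CB, a catalytic subunit of myosin phosphatase, had 140 and 140 min, against 740 and 550 min in K562 cells. The muscle intermediate filament gene DES had 120 and 220 min in NIH-3T3 cells, against 590 and 910 min in K562 cells, and its difference was not called after centring (limma adjusted p = 0.0849).

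Of 13 regulators and targets of SRF, 11 were tested on chromatin, with 1 longer and 1 shorter in NIH-3T3 cells, where 28.6% of all genes were called longer. For the whole-cell half-life none of 10 tested was longer in limma and 5 were shorter, against 5.06% and 60.2% of all genes. At an adjusted p under 0.05 and with centring 3 were longer and 2 shorter, against 26.3% and 18.2%. The immediate early gene IER2 had whole-cell half-lives of 15 and 21 min in the NIH-3T3 tables, against 79 and 76 min in the K562 tables, and EGR1 had 13 and 17 min against 32 and 34 min. ELK1, an ETS factor that binds with SRF, had 94 and 81 min in the NIH-3T3 tables, against 340 and 410 min in the K562 tables. After centring EGR1 was no longer called, at -0.18 (limma adjusted p = 0.456). In the nucleus IER2 had 17 and 15 min and EGR1 14 and 12 min in the NIH-3T3 tables, against 79 and 65 min and 25 and 30 min in the K562 tables. ELK4 (56 and 63 min against 36 and 40 min in K562 cells) and the SRF coactivator MRTFB (55 and 60 min against 37 and 40 min in K562 cells) stayed longer in the NIH-3T3 nucleus. In the cytoplasm IER2 had 5.1 and 5.9 min in NIH-3T3 cells, against 0.99 and 1.5 min in K562 cells. MRTFB had 18 and 14 min in the NIH-3T3 cytoplasm against 41 and 36 min, and the LIM protein FHL2 19 and 24 min against 44 and 50 min in K562 cells. After centring those differences were -0.05 for MRTFB (limma adjusted p = 0.856) and 0.09 for FHL2 (limma adjusted p = 0.825), so neither was called.

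The authors' deposited tables carry their own call of whether an RNA is degraded in the nucleus. Per the authors' deposited tables, none of the 10 genes had that call in NIH-3T3 cells, where 509 of 11667 genes assessed (4.36%) had it. In the authors' deposited tables none of the 7 genes assessed in K562 cells had it either, where 371 of 11409 genes (3.25%) did. ACTB, ACTG1 and ACTA2 were not assessed there. The authors' Bayes factors for nuclear degradation were not low in every table, and some differed widely between replicates. With 4 compartments they were 0.0077 and 8900000 for Actb in NIH-3T3 replicates 1 and 2, and 2600000000000000 and 2.20e-10 for Tpm1. For TPM1 in K562 replicates 1 and 2 they were 0.00013 and 840. With 3 compartments they were 1.60e-06 and 35000000000 for Actg1 in the NIH-3T3 replicates. For Actb they were then 37000000000000000 and 2.10e-08, so its higher replicate was the other one than with 4 compartments. In the same tables of the authors, the K562 heatmap cluster numbered 28, of 606 among 10510 genes, held ACTB, ACTG1, TAGLN2 and MYH9, while TAGLN and TPM2 were in cluster 6, TPM1 in 12 and CNN2 in 29.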

How the data were processed

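RNA of 5 fractions was sequenced by the authors after TimeLapse chemistry, from a stranded total RNA kit per the labels' protocols. The submitters' processing notes name cutadapt 2.5, STAR 2.7.0a, hg38 and mm10. The deposited values are other than counts: half-lives in minutes, as posterior modes, means and 95% credible intervals with 2 significant digits and an upper bound of 6900 min, fitted by the authors for each time course and not normalized between tables. Filters and priors of that fit are not given in the sources used here.

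Genes were paired between lines by symbol ignoring case. Log2 posterior modes, with no pseudocount and no centring, were compared by limma 3.58.1 in R 4.3.3, two-sided, on 2 tables against 2, with Benjamini-Hochberg adjustment over all genes of each comparison and a threshold of 0.05; ratios of 2 steps were treated alike. The script was tested on simulated data. The labels do not say whether replicates are separate cultures, so p-values measure only the spread between tables, which may be technical. In limma the spread of each gene is drawn toward that of all genes. An SE is therefore not the spread of that gene's replicates alone. Within a line, steps or genes count as apart where intervals do not overlap, the same way, in both tables. All 10 members were named throughout; of the further lists, called genes with the largest differences were named (3 in each direction for the whole cell, 2 for nuclear and cytoplasmic). One gene that this rule names is not reported here. Members and lists were chosen with earlier results of these data known. Alternatives were posterior means, an interval filter (at most 4-fold wide), centring, a replicate block, each table left out, and genes at the bound left out. Transcripts and coordinates are from GENCODE 29 (GRCh38).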

Additional observations from a re-analysis of the deposited data

Results flagged for a closer look

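The balance of steps differed between the lines for several of these genes, by the limma test of the ratio itself. For the ratio of nuclear to cytoplasmic half-life, the log2 difference NIH-3T3 minus K562 was 3.93 for TPM1, 3.84 for ACTB, 3.17 for MYH9, 2.54 for ACTG1, 2.18 for CNN2 and 1.43 for TAGLN2. All 6 were higher in both NIH-3T3 tables than in either K562 table. That also held for TAGLN, TPM2 and MYL9, which were not called. Over all genes 38.4% were called higher, with a median difference of 1.08. After centring CNN2 (1.02, limma adjusted p = 0.163) and TAGLN2 (0.26, limma adjusted p = 0.513) were not called. For the ratio of chromatin to export half-life the log2 difference was 4.62 for MYH9, 4.55 for ACTB and 4.33 for ACTG1. Of all genes 5.21% were called higher, and MYH9 alone of these 3 stayed called after centring. In these 3 the NIH-3T3 ratios were also above both K562 ratios, although the NIH-3T3 replicates themselves differed widely, at 1.68 and 52.5 for Actb.

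Among the members' 227 values of the 6 half-lives, 8 posterior means lay outside their own 95% credible interval, and 1 posterior mode did. The means concern ACTG1 and MYH9 in both lines, TAGLN2 in both K562 tables, and Cnn2 and Actb in NIH-3T3 replicate 1. One example is Myh9 on chromatin in NIH-3T3 replicate 2, with a mode of 390 min, an interval of 380 to 410 min and a mean of 6700 min.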

How the results depend on the processing

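Counts of called genes are given as members and all genes. Leaving out 1 table at a time gave 0 to 3 members (0 to 912 genes) for chromatin, 0 to 3 (0 to 2351) for the cytoplasm, 0 to 4 (0 to 4353) for the whole cell, 0 to 5 (0 to 2407) for nuclear over cytoplasmic, 0 to 5 (0 to 3288) for chromatin over export, and 0 for nuclear, export and polysome loading half-lives. These fits have 1 residual degree of freedom, and the lone table of a line is assumed to vary like the other line. Centring the tables gave 6 members for nuclear, 3 (2305 genes) for export, 2 (2167 genes) for cytoplasmic half-life and 1 (1667 genes) for chromatin over export. Posterior means gave 1 member (342 genes) for chromatin over export and 0 genes for polysome loading. Intervals at most 4-fold wide gave 4 genes for polysome loading, 1379 for chromatin over export and 4 for cytoplasmic over polysome loading. Without genes at the upper bound, polysome loading had 0 genes called.

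The replicate numbers do not pair the tables (correlations of deviations from -0.05 to 0.02). With the replicate block, 2336 genes were called for nuclear, 4 members and 1600 genes for export, 0 genes for polysome loading and 1165 genes for chromatin over export. The cause of these shifts was not tested.

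Within lines, a single table in place of both gave, in NIH-3T3 cells, 3 to 9 members (3827 to 7757 genes) with longer chromatin than export half-lives and 0 to 3 (269 to 1407) with the opposite. It gave 0 to 4 members (127 to 1222 genes) with longer chromatin than nuclear half-lives, 1 to 9 (2426 to 6663) with the opposite, 945 to 1117 genes with longer cytoplasmic than nuclear half-lives and 300 to 345 with longer polysome loading than cytoplasmic half-lives. In K562 cells it gave 1 to 3 members with longer chromatin than export, 0 to 1 (197 to 377 genes) with longer chromatin than nuclear half-lives, and 152 to 360 genes with longer polysome loading. Members above the median of all genes numbered 1 to 2 for NIH-3T3 polysome loading, against 0 with both tables, and 4 to 5 for K562 cytoplasmic half-life, which was 1 with posterior means.

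Requiring modes at least 2-fold apart gave, in NIH-3T3 cells, 1 member (2408 genes) with longer chromatin than export, 116 genes with the opposite, 276 with longer polysome loading, 41 with longer chromatin than nuclear, and 0 members (399 genes) with longer nuclear than chromatin half-lives. In K562 cells it gave 2129 genes with longer cytoplasmic than nuclear, 1081 with longer export and 2 members with longer chromatin than export, 253 genes with longer polysome loading, 33 with longer chromatin than nuclear and 2725 with the opposite. Leaving out genes that the authors' table marks for nuclear degradation, 341 NIH-3T3 genes had longer cytoplasmic than nuclear half-lives and 62 K562 genes longer chromatin than nuclear ones.

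Log2 differences changed sign after centring for export of CNN2 (0.22), for cytoplasmic half-life of TAGLN2 (0.00), MYL9 (0.85) and CNN2 (0.18), for whole-cell half-life of ACTB (0.36), ACTG1 (0.38), TAGLN2 (0.25), TPM1 (0.70), MYL9 (0.89) and MYH9 (0.10), for nuclear over cytoplasmic of TPM2 (-0.05), for chromatin over export of TPM1 (-0.71) and TPM2 (-0.76), and for cytoplasmic over polysome loading of ACTG1 (0.42) and TAGLN (0.31). With posterior means they did so for chromatin of ACTG1 (-0.71), nuclear of TAGLN2 (-0.76), whole-cell of MYL9 (0.31) and chromatin over export of TPM2 (-0.02). Leaving out 1 table turned export of TPM2 (-0.21 to 1.78) and CNN2 (-1.57 to 1.17), cytoplasmic half-life of TAGLN (-2.94 to 0.15), TPM2 (-0.05 to 0.63) and MYL9 (-1.15 to 0.40), polysome loading of TAGLN (-1.71 to 0.86), whole-cell half-life of TPM1 (-0.84 to 0.30), MYL9 (-0.70 to 0.54) and CNN2 (-0.21 to 0.35), chromatin over export of TAGLN (-5.06 to 0.49), TPM1 (-1.15 to 1.26) and TPM2 (-1.30 to 1.31), and cytoplasmic over polysome loading of ACTB (-1.89 to 2.60). None of these was called with all tables uncentred except the whole-cell values of ACTB, ACTG1, TAGLN2 and MYH9, the cytoplasmic value of TAGLN2 and the chromatin value of ACTG1.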
